A study of Mus musculus with 6 samples.

Results

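The proteins of the cytosolic ribosome were followed in pancreatic islets of pregnant and nonpregnant mice through the read levels of their genes. Members were taken by symbol: Rpl, Rplp or Rps followed by a digit, or Rpsa, without the kinase symbols that begin with Rps6k and without pseudogene symbols that contain -ps. This rule took 84 of 19940 genes, of which 50 had large subunit symbols and 34 had small subunit symbols. The choice used no measured value. Of the 84, 76 encode canonical subunit proteins, 45 of the large and 31 of the small subunit. The other 8 were 7 paralog copies and Rps19bp1, whose product binds Rps19 and is not a subunit protein.

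RNA sequencing covered 3 samples from C57BL6/J mice at gestational day 14.5 and 3 from nonpregnant C57BL6/J mice, which the labels call littermates. Islets were freed by a Liberase TL and DNase I solution delivered through the bile duct and picked by hand, and RNA with an integrity number over 7 went into a TruSeq transcriptome library. The design text counts 5 animals per group, and the labels do not say whether a sample held the islets of 1 animal. The table used here gives 1 mean read count per gene and group, so no spread between samples can be shown, and every p-value is the authors'. The sum of these means was 87654449 reads in the pregnant and 84493872 reads in the nonpregnant group. Islet genes were abundant in both groups: the 10 beta cell markers, insulin among them, held 22.2% of pregnant and 18.9% of nonpregnant reads. Of these 10, 2 were called higher and 1 lower, with a median log2 ratio of 0.05 in the authors' deposited table. Their ratio lay above 0 in 6 and below 0 in 4. Markers of the other endocrine cells were also present and took a smaller share of reads in the pregnant group. The 6 alpha cell markers held 1.62% of pregnant and 2.41% of nonpregnant reads, with 3 of 6 called lower, 0 higher and a median log2 ratio of -0.37 in the authors' deposited table. The 3 delta and PP cell markers held 0.632% and 0.765% of reads, with 1 of 3 called lower and 0 higher in the authors' deposited table. Acinar enzymes, which the exocrine pancreas makes, took 1.71% of reads in the pregnant and 0.126% in the nonpregnant group. In the authors' deposited table, 25 of 27 measured acinar genes passed the test as higher, with folds over the list from 6.93 to 23.4. The list was detected in both groups apart from 1 gene listed at 0 in the nonpregnant group. Any part of acinar RNA or of these endocrine marker shifts in the results below was not tested.

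The cytosolic ribosome joins a small subunit, which reads the messenger RNA, to a large subunit, which forms the peptide bond. Each subunit is a ribosomal RNA scaffold with many small, mostly basic proteins that are made in near equal numbers and are among the most abundant messages of a cell. Their messages typically begin with a terminal oligopyrimidine (TOP) tract, a C followed by a run of C and T, through which mTORC1 signalling controls their translation. Beta cells spend much of their protein synthesis on insulin.

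Ribosomal protein genes were higher in the pregnant islets as a broad group of small changes. Of the 84 genes, 56 (66.7%) passed an adjusted p under 0.05 as higher in the authors' deposited table and 0 as lower, while 28 passed in neither direction. Over all genes of the table the same rule called 7.57% higher and 4.15% lower, and among the 8796 genes with at least 1000 mean reads it called 9.8% higher and 6.43% lower. The median log2 ratio of pregnant over nonpregnant was 0.38 for the members (quartiles 0.32 and 0.47) and -0.02 for all genes in the authors' deposited table. The ratio lay above 0 in 81 of the 84. In bulk islets, more cells of a type and more RNA per cell cannot be told apart, nor can fewer cells and less RNA per cell.

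The folds were narrow in range. In the authors' deposited table the lowest fold among the 56 genes that rose was 1.22 and the highest 1.81, and 53 of them lay between 1.2-fold and 1.6-fold. The 3 beyond 1.6-fold were Rplp1, Rps26 and Rpl36. Among the 28 genes without a call, 16 also had a fold of at least 1.2, and 11 had an adjusted p between 0.05 and 0.1 in the authors' deposited table. Together the members held 1.33% of pregnant and 1.07% of nonpregnant reads, a ratio of shares of 1.24. The share went from 0.614% to 0.755% for large subunit symbols and from 0.455% to 0.570% for small subunit symbols, nonpregnant value first.

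**Figure D1:**
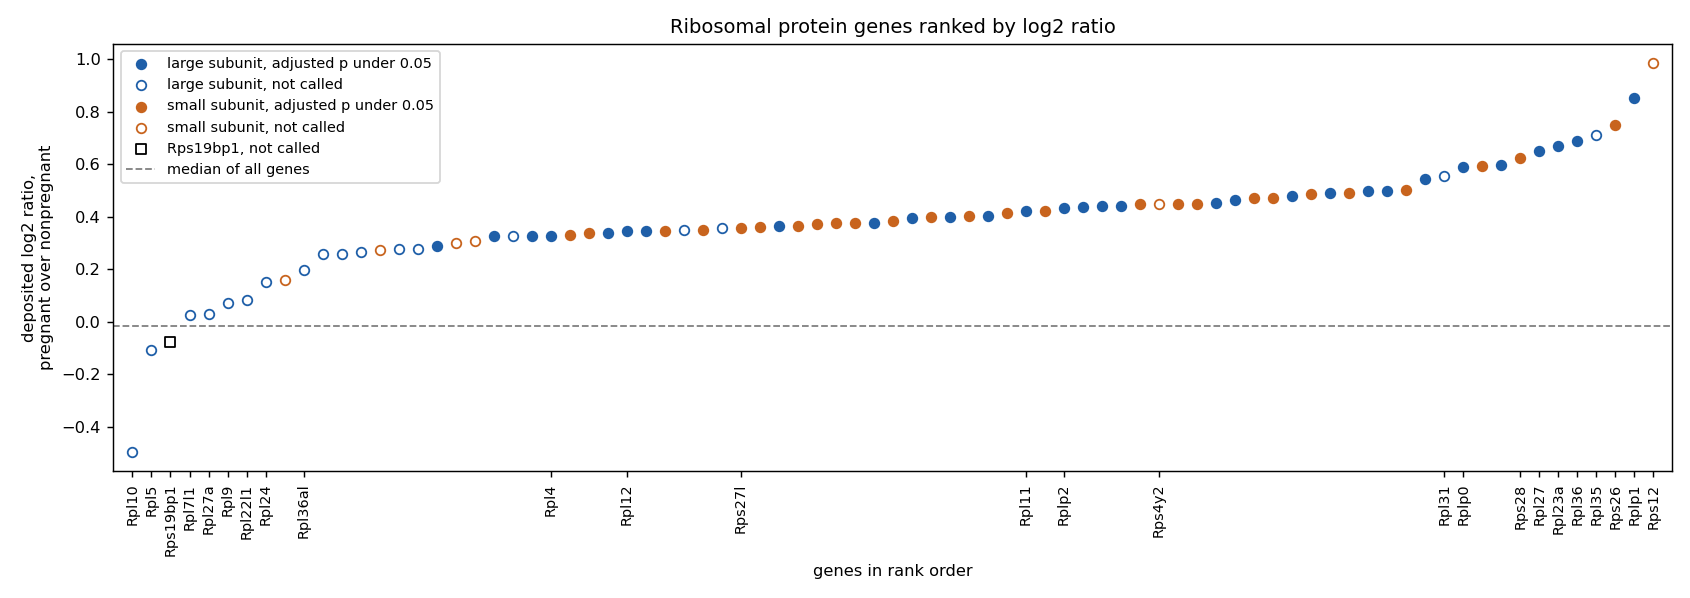
Each point is a ribosomal protein gene with at least 10 mean reads (81 genes), placed by its rank on the horizontal axis and by the authors' deposited log2 ratio of pregnant over nonpregnant on the vertical axis. Filled points passed an adjusted p under 0.05, colours give the subunit of the symbol, the black square is Rps19bp1, and the dashed line is the median of all genes at -0.02. Labels mark some of the genes named in the text. Most points form a plateau between 0.25 and 0.6, with Rpl10 alone far below it and Rps12, without a call, at the top.

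Both subunits shared this level. Among the canonical genes, 30 of 45 large subunit genes and 25 of 31 small subunit genes rose in the authors' deposited table, with medians of 0.40 and 0.40 on the log2 scale. The ratio lay above 0 in 31 of 31 small subunit genes and in 43 of 45 large subunit genes. At a stricter adjusted p of 0.01, 16 of the 50 large and 21 of the 34 small subunit symbols were still called in the authors' deposited table. The share of all genes called at 0.01 is not given here. No test was made between the subunits, because genes are not replicates.

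The stalk of the large subunit recruits the translation factors that spend GTP. All 4 of its genes rose. Rplp0, the stalk base on chromosome 5, was at the authors' mean of 48527 reads in pregnant and 33088 in nonpregnant islets, 1.5-fold with an adjusted p of 3.25e-07 in the authors' deposited table. Rplp1, which with Rplp2 forms the flexible arms of the stalk, stood at 29178 against 16583 reads, 1.81-fold with an adjusted p of 1.79e-05 in the authors' deposited table. This was the largest fold among the genes that passed the test. Rplp2 stood at 11028 against 8368 reads, 1.35-fold with an adjusted p of 6.52e-04 in the authors' deposited table. Rpl12, which sits at the stalk base, had 14939 against 12047 reads, 1.27-fold with an adjusted p of 0.0102 in the authors' deposited table. So the arm proteins Rplp1 and Rplp2, partners in one complex, had different folds; whether they differ beyond sample spread was not tested.

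Rpl11 and Rpl5 enter the large subunit together with the 5S ribosomal RNA and, when free, bind the p53 regulator Mdm2. Rpl11 rose, from 2966 to 3868 reads (1.34-fold, adjusted p 0.0299 in the authors' deposited table). Rpl5 did not pass the test, at 777 pregnant against 858 nonpregnant reads (0.93-fold, adjusted p 0.785 in the authors' deposited table). The reads of Rpl5 are uncertain for a reason given with the shared sequences.

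Around the exit tunnel, through which the new chain leaves the ribosome, 4 of 8 genes rose in the authors' deposited table: Rpl4, Rpl17, Rpl19 and Rpl23a. Rpl4, whose protein lines the tunnel, had the most reads of any member, 62055 against 50668, and rose 1.25-fold with an adjusted p of 0.0142 in the authors' deposited table. Rpl23a, a docking site for factors at the tunnel exit, had 1455 against 938 reads (1.59-fold, adjusted p 0.0425 in the authors' deposited table). Its neighbour at the exit, Rpl35, had a similar fold without a call, 2472 against 1551 reads (1.64-fold, adjusted p 0.0686 in the authors' deposited table). Rpl31 lay close by, at 2354 against 1643 reads (1.47-fold, adjusted p 0.0633 in the authors' deposited table). Of the 4 genes near the peptidyl transferase centre and in the L1 stalk, Rpl3 and Rpl10a rose, and Rpl8 had an adjusted p of 0.068 in the authors' deposited table.

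Rpl10, the remaining gene of that group, had the lowest ratio of all 84 members. Its protein joins the large subunit late in assembly and lies next to the catalytic centre. It had 1989 reads in pregnant and 2874 in nonpregnant islets, 0.71-fold with an adjusted p of 0.0736 in the authors' deposited table, so that it did not pass the test. At an adjusted p under 0.1 it would be the 1 member called lower, beside 66 called higher in the authors' deposited table. The share of all genes called at 0.1 is not given here. Rpl10, Rpl5 and Rps19bp1 were the 3 members with a log2 ratio below 0. Rps19bp1 had 733 against 792 reads (0.95-fold, adjusted p 0.884 in the authors' deposited table).

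In the small subunit, Rps14, Rps26, Rps28 and Rpsa, whose proteins lie at the mRNA exit, all rose in the authors' deposited table. Rps26, which contacts the messenger RNA upstream of the start codon, had 6970 against 4252 reads, 1.68-fold with an adjusted p of 1.82e-05 in the authors' deposited table. Rps28 had 8174 against 5434 reads (1.54-fold, adjusted p 1.82e-04 in the authors' deposited table). At the mRNA entry and decoding site 4 of 5 genes rose in the authors' deposited table (Rps2, Rps3, Rps9 and Rps15), and Rps23, a decoding centre protein, did not pass (adjusted p 0.176). In the beak of the small subunit, Rps10 and Rps27a rose and Rps12 did not pass. Rps12 nevertheless had the largest ratio of any member with at least 10 reads, 3502 against 1816 reads, 1.98-fold with an adjusted p of 0.0654 in the authors' deposited table. Rpl36 and Rpl27 completed the upper end: Rpl36 had 8527 against 5428 reads (1.61-fold, adjusted p 0.0149) and Rpl27 556 against 363 reads (1.57-fold, adjusted p 0.0281) in the authors' deposited table.

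At the lower end, Rpl27a had nearly the same mean in both groups, 2287 against 2293 reads (1.02-fold, adjusted p 0.98 in the authors' deposited table). Rpl9 was also close to equal, at 5884 against 5749 reads (1.05-fold, adjusted p 0.86 in the authors' deposited table). The line for Rpl24, at 13641 against 12592 reads (1.11-fold, adjusted p 0.434 in the authors' deposited table), is uncertain. Its Ensembl identifier belongs to Zbtb11 in the GENCODE annotation, so the reads may be those of either gene, and Rpl24 was left out of every value per length. Without that line the median of the large subunit symbols was 0.38 on the log2 scale of the authors' deposited table. Rps19bp1, Rpl7l1 and Rpl22l1, also at this end of the order, are not canonical subunit genes.

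Genes mutated in Diamond-Blackfan anaemia, an inherited failure of red cell formation, were spread over this order. Of 19 such members, 13 rose and 0 fell in the authors' deposited table, with a median log2 ratio of 0.45. The 6 without a call were Rpl5, Rpl18, Rpl26, Rpl31, Rpl35 and Rps27. Some ribosomal proteins are made as fusions with ubiquitin or a ubiquitin-like protein. Among them Rps27a rose, at 8818 against 7185 reads (1.26-fold, adjusted p 0.0171 in the authors' deposited table). Fau was low, at 115 against 76 reads (adjusted p 0.22 in the authors' deposited table). Fau encodes a small subunit protein, but its symbol falls outside the rule and it is not counted among the 84.

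Some canonical genes have a paralog that can take their place in the ribosome. The 8 noncanonical members are not all such copies, since they include Rps19bp1 and a pseudogene. Of the 8, 1 rose (12.5%, against 7.57% of all genes), with a median log2 ratio of 0.14 over the 8 in the authors' deposited table. The riser was Rps27l, with 3718 against 2978 reads (1.28-fold, adjusted p 0.033 in the authors' deposited table). Rpl22l1 had 3075 against 2979 reads (1.06-fold, adjusted p 0.98) beside its canonical partner Rpl22 with 7333 against 6253 (1.2-fold, adjusted p 0.106) in the authors' deposited table. Rpl36al had 12490 against 11188 reads (1.15-fold, adjusted p 0.252) beside Rpl36a with 6795 against 5510 (1.26-fold, adjusted p 0.016) in the authors' deposited table. Whether the partners of a pair differ in their ratio was not tested. Rpl7l1 had 4692 against 4726 reads (1.02-fold, adjusted p 0.98 in the authors' deposited table). Rps4y2, which GENCODE names Rps4l and classes as a transcribed processed pseudogene, had 2419 against 1815 reads (1.36-fold, adjusted p 0.0755 in the authors' deposited table). Rpl39l, with 3 against 0 reads, and Rpl3l, a form of Rpl3 found in heart and skeletal muscle, with 2 against 2 reads, were at the floor of the table, and no fold is given for them.

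Canonical Rps27 was nearly unread. Rps27 was listed at 6 pregnant and 5 nonpregnant reads, while Rps27l had a mean of 3348 reads over both groups. GENCODE M21 annotates another copy, Rps27rt, whose coding sequence matched Rps27 in all 252 bases, and its line in the table held 2 against 6 reads. Rps27l differed from Rps27 at 60 of its 252 coding bases (76.2% identity). The first 60 coding bases of the 3 genes are printed 5′ to 3′ to set the identical pair, with few reads, beside the diverged copy. Capitals mark bases that differ from Rps27. The genes lie on GRCm38 at chr3:90212522-90213651 (Rps27, minus strand), chr9:114982366-114982739 (Rps27rt, minus strand) and chr9:66946086-66949516 (Rps27l, plus strand).
Rps27: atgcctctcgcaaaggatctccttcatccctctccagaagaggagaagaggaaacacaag
Rps27rt: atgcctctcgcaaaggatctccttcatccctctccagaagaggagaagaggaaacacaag
Rps27l: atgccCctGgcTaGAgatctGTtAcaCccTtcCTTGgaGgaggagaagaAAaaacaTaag
Rpl36al and Rpl36a, which both had over 1000 mean reads, differed at 39 of 318 coding bases (87.7% identity). The sources used here do not say how reads that map to several places were counted.

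Shared sequence was common among the members. For each gene the 50-base windows of its principal GENCODE transcript were looked for, on either strand, in transcripts of all other genes. Processed pseudogenes and genes that overlap on the chromosome were included. Of 75 canonical genes (without Rpl24), 49 had at least 50% of their windows in another gene. The median share of the 75 genes was 61.2%. Of the 4 canonical genes under 1000 mean reads, Rps27 (98.6%), Rpl5 (93.8%) and Rps13 (83.0%) had a high share, while Rpl27 (64.1%) lay near the median. Rpl35, Rpl10 and Rps12, which lie at the ends of the ratio order without a call, shared 95.1%, 92.1% and 90.1% of their windows, so their levels are uncertain too, while Rpl27a shared 35.9%. High sharing did not always go with few reads, since 7 of the 43 canonical genes over 10000 mean reads had at least 80% of windows shared. Across the 75 genes the Spearman correlation of mean reads with the shared percentage was -0.37, and over all 84 members it was -0.16. With the deposited log2 ratio the correlation across the 75 genes was -0.01. These genes share libraries and are not independent replicates.

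The rise itself was present at every level of sharing. With up to 25% of windows shared, 5 of 8 genes rose and the median log2 ratio was 0.365 in the authors' deposited table. From 25% to 50%, 15 of 18 rose (median 0.41), from 50% to 75%, 18 of 23 (median 0.38), and above 75%, 17 of 26 (median 0.42) in the authors' deposited table. The 46 table lines with ribosomal pseudogene symbols summed to only 124 pregnant and 159 nonpregnant reads, and 0 of them were called.

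**Figure D2:**
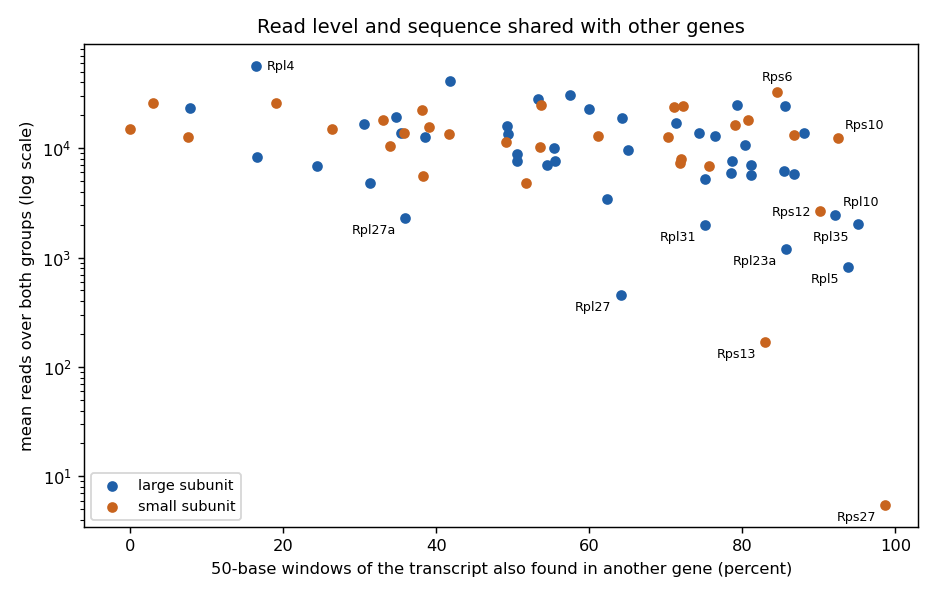
Each point is a canonical subunit gene (75 genes), with the percentage of its 50-base transcript windows found in another gene on the horizontal axis and the mean of both groups' reads on a logarithmic vertical axis. The genes with the fewest reads, Rps27, Rps13, Rpl27 and Rpl5, lie at 64.1% or more, against a median of 61.2% over the 75 genes. Many genes in the same range of sharing lie above 10000 reads.

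Some members overlap a neighbour on the chromosome, and such windows count as shared: 59% of the Rpl35 windows lay in Wdr38 transcripts. Exons of another gene covered 66.2% of the exon bases of Rpl35 (Wdr38, 33 against 46 reads) and 62.3% of those of Rpl23a, so the reads of both are uncertain. The neighbour of Rpl23a, Tlcd1, fell, at 666 against 915 reads (0.75-fold, adjusted p 0.0378 in the authors' deposited table). Rpl5 shares 45.3% of its windows with transcripts of Fam69a, which rose from 236 to 1122 reads (4.85-fold, adjusted p 9.59e-52 in the authors' deposited table). Rpl5 and Fam69a lie on opposite strands, so their reads in that stretch can be told apart only if strand was used in counting. The ratios of both are therefore uncertain. The spans of 25 members overlap a gene on the opposite strand, and the sources used here do not say whether strand was used in counting.

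Levels between genes were compared as mean reads per kilobase of annotated exon. In nonpregnant islets the highest large subunit genes were Rplp1 at 33232, Rpl4 at 25246 and Rpl19 at 21417 reads per kilobase. The highest small subunit genes were Rps3a at 22222, Rps15 at 21325 and Rps6 at 18380 reads per kilobase. The lowest were Rps27 at 4.79, Rps13 at 60.2 and Rps12 at 896 in the small subunit, and Rpl5 at 219, Rpl27 at 236 and Rpl27a at 827 in the large subunit, in the same unit. The middle of the canonical genes was much tighter, with quartiles of 2583 and 9468 reads per kilobase. Neighbours in this order cannot be separated, because no spread between samples is given.

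The order was similar in both groups and depended on the length used. Reads per kilobase were higher in the pregnant group for 72 of 75 canonical genes, 9 of the 10 highest genes were shared between the groups, and the Spearman correlation of the reads was 0.99 across the 75 genes. Per kilobase of coding sequence in place of all exons, only 5 of the 10 highest but 9 of the 10 lowest genes were shared. The median level of the large subunit symbols was 3573 and that of the small subunit symbols 4692 reads per kilobase of exon in nonpregnant islets, a ratio of 0.761. Per kilobase of coding sequence this ratio was 0.714.

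**Figure D3:**
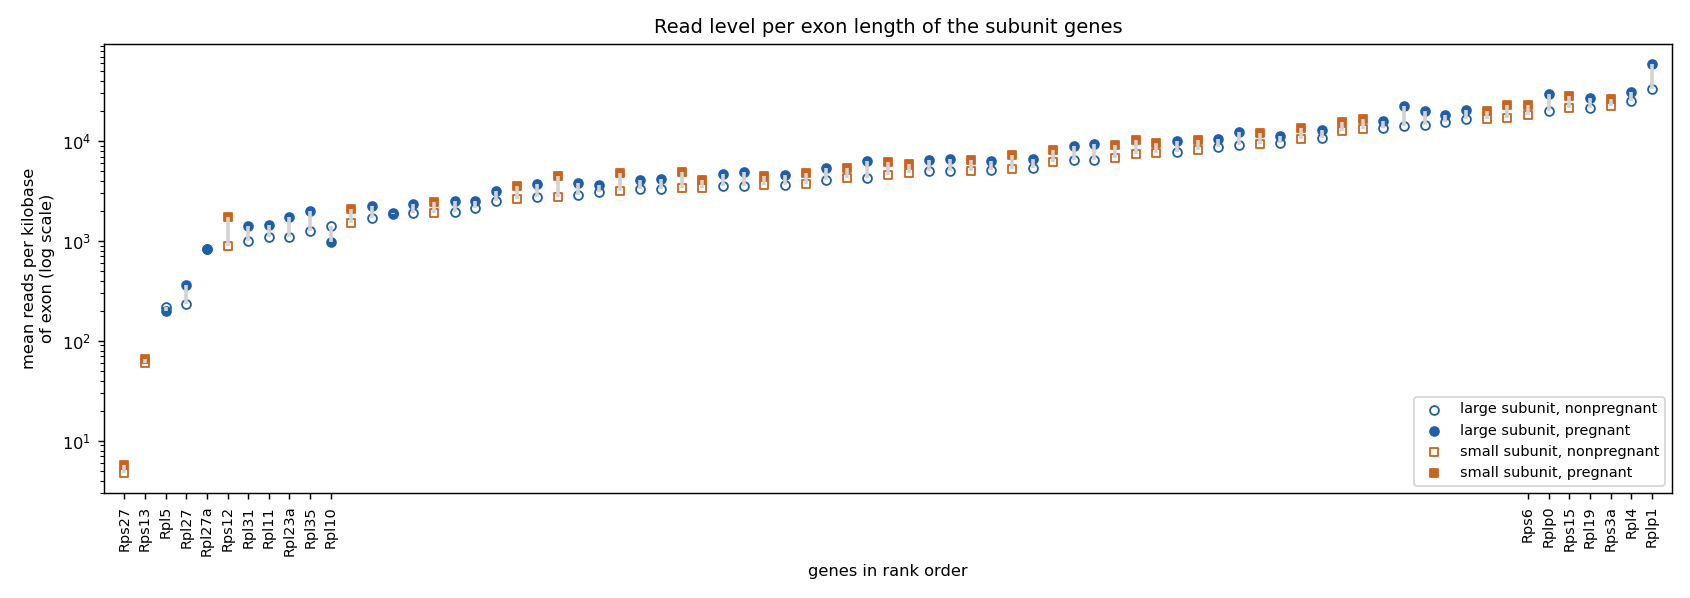
The 75 canonical genes are ordered by mean reads per kilobase of exon in nonpregnant islets (open symbols), on a logarithmic vertical axis, with the pregnant value as a filled symbol joined by a grey line, circles for the large and squares for the small subunit, and labels for the genes at both ends. Filled symbols lie above open ones in 72 of 75 genes, and the order runs from Rps27 at 4.79 to Rplp1 at 33232 reads per kilobase in nonpregnant islets.

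Ribosomal protein messages are short, and short messages as a class were higher in the pregnant group. Among other protein-coding genes with at least 1000 mean reads, 55 of 172 with a principal transcript of up to 700 bases rose in the authors' deposited table, with a median log2 ratio of 0.23. This share declined with length to 365 of 5490 genes over 2500 bases, with a median of -0.06 in the authors' deposited table. The canonical members with at least 1000 mean reads had higher medians and larger shares called higher in each length class. Their read levels were also higher, with a median of 9018 nonpregnant reads against 2742 for other genes up to 700 bases. The part of read level in these calls was not tested. Up to 700 bases, 25 of 33 rose (median 0.435), from 700 to 1000 bases 16 of 22 (median 0.39, against 0.20 for 301 other genes), and from 1000 to 1500 bases 8 of 11 (median 0.35, against 0.11 for 724 other genes) in the authors' deposited table. Over 2500 bases the 1 member, Rps20, rose at a log2 ratio of 0.45 in the authors' deposited table. From 1500 to 2500 bases 4 of 4 members rose, with a median of 0.44 against 0.02 for 1936 other genes in the authors' deposited table. Inside the 75 canonical genes the Spearman correlation of the log2 ratio was -0.11 with transcript length, -0.25 with coding length and 0.20 with GC content. The part of transcript length in the members' ratios was not tested.

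**Figure D4:**
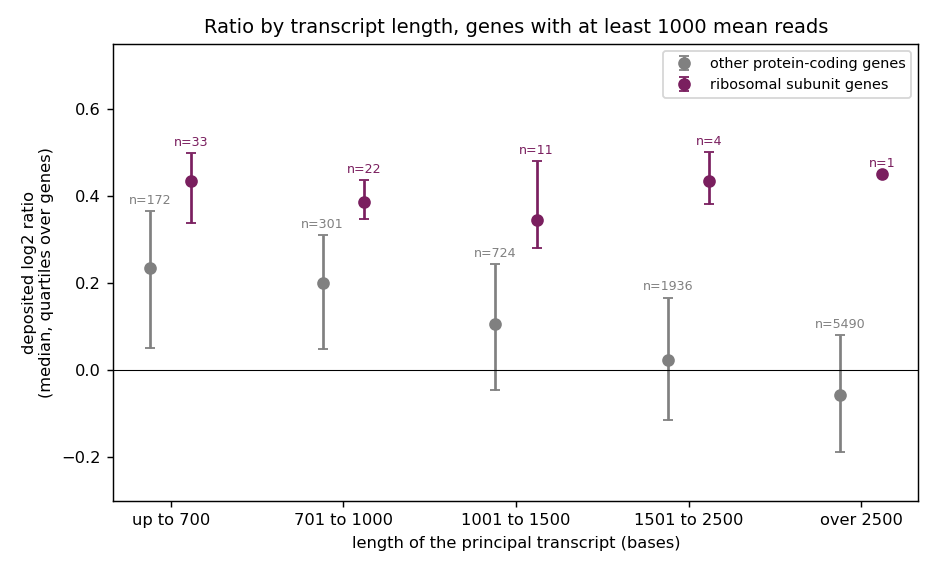
Points give the median authors' deposited log2 ratio and bars the quartiles over genes, by length class of the principal transcript in bases, for canonical subunit genes and other protein-coding genes with at least 1000 mean reads, with the number of genes at each point. The medians of other genes go from 0.23 at up to 700 bases to -0.06 over 2500 bases, and those of the subunit genes stay above them in each class.

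The start of the message was examined for the TOP tract in the RefSeq promoter table of GRCm38.p6, which matched 63 of the 84 members by symbol. Those without an entry include Rplp1, Rpl23a, Rpl36 and Rps4y2. The motif searched was a C followed by at least 4 bases that are C or T, on the strand of the gene. It stood exactly at a listed start in 13 of the 63 members (20.6%), against 3.01% of all 27025 gene symbols with a promoter entry. A symbol with several listed starts was counted once, if any of them matched. With a start allowed up to 10 bases away it was found in 38 of 63 (60.3%), against 34.4% of all these symbols. A match describes these letters only, and a listed start can lie a few bases from the start used in islets.

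The windows below, 5′ to 3′ and on the strand of the gene, run from 30 bases before the listed start through its first 16 bases, with the tract in capitals where one begins within 10 bases of the start. They show stalk genes and genes from both ends of the ratio order. Their positions on GRCm38 are chr5:115559437-115559482 on the plus strand (Rplp0), chr7:141447621-141447666 on the plus strand (Rplp2), chr10:128626491-128626536 on the minus strand (Rps26) and chr10:23787194-23787239 on the minus strand (Rps12). For the others they are chr2:39005116-39005161 on the minus strand (Rpl35), chr7:109519165-109519210 on the plus strand (Rpl27a), chr5:107900498-107900543 on the plus strand (Rpl5) and chrX:74270786-74270831 on the plus strand (Rpl10).
Rplp2: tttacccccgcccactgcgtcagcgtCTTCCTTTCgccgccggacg
Rps26: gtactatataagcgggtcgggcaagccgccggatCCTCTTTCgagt
Rps12: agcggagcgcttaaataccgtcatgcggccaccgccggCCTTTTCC
Rpl35: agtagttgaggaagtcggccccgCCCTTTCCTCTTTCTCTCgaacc
Rpl27a: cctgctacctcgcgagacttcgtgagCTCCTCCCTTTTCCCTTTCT
Rplp0: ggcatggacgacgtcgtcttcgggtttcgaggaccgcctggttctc
Rpl5: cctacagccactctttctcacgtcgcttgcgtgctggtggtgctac
Rpl10: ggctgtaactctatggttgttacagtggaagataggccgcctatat
Rpl27a, whose reads were nearly equal between the groups, has the longest run of capitals printed, and Rplp0, which rose 1.5-fold in the authors' deposited table, has none in this window. Over the canonical genes with a promoter entry, 9 of 13 with a tract at the start rose (median log2 ratio 0.36), 13 of 21 with a tract within 10 bases only (median 0.38) and 14 of 21 with no tract there (median 0.38) in the authors' deposited table.

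Other genes of the pathway were read from lists. The TOP genes outside the ribosome, mostly translation factors, had a median near that of the members: 10 of 18 measured rose (55.6%, against 7.57% of all genes) and 0 fell, with a median log2 ratio of 0.31 and a ratio above 0 in 18 of 18 in the authors' deposited table. Eef1a1, the factor that delivers aminoacyl-tRNA, had 319750 against 245593 reads (1.33-fold, adjusted p 7.89e-04), and Pabpc1, the poly(A) binding protein, 25341 against 19688 (1.32-fold, adjusted p 0.00173), in the authors' deposited table. Eef1b2, an exchange factor for Eef1a1, was also 1.32-fold higher (adjusted p 0.00328 in the authors' deposited table). Mitochondrial ribosomal proteins, which build the separate ribosome of that organelle, rose in 6 of 77 genes and fell in 0, with a median log2 ratio of 0.10 in the authors' deposited table. The share called higher, 7.79%, was near the 7.57% of all genes. The calls were 4 of 47 in the large and 2 of 30 in the small subunit, led by Mrpl17 (1.40-fold, adjusted p 1.9e-04), Mrpl42 (1.37-fold, adjusted p 0.001) and Mrps15 (1.29-fold, adjusted p 0.0258) in the authors' deposited table. Their share of all reads was 0.154% in pregnant and 0.152% in nonpregnant islets.

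Of 49 measured ribosome assembly factors 2 rose (4.08%, against 7.57% of all genes) and 4 fell (8.16%, against 4.15% of all genes), with a median log2 ratio of -0.09 in the authors' deposited table. Their median transcript was 2564 bases long. Other abundant genes over 2500 bases had 8.07% called lower and a median of -0.06 in the authors' deposited table. Those from 1500 to 2500 bases had 4.44% called lower and a median of 0.02 in the authors' deposited table. The part of transcript length in the assembly genes' ratios was not tested. Mdn1, the large ATPase that remodels the pre-large subunit, fell from 8264 to 5024 reads (0.62-fold, adjusted p 5.67e-09 in the authors' deposited table). Utp20, a small subunit processome protein, fell from 2933 to 2095 (0.73-fold, adjusted p 0.00123 in the authors' deposited table), while Npm1, the abundant nucleolar chaperone, rose from 11450 to 14746 reads (1.32-fold, adjusted p 0.0019 in the authors' deposited table). Of 18 RNA polymerase I genes, which transcribe ribosomal RNA, 1 rose (5.56%, against 7.57% of all genes): Polr2e, a subunit shared by all nuclear polymerases (1.26-fold, adjusted p 0.0284 in the authors' deposited table). Taf1c (0.80-fold, adjusted p 0.0868) and Polr1e (0.78-fold, adjusted p 0.108) were not called in the authors' deposited table.

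Among regulators, 1 of 16 mTORC1 pathway genes rose and 0 fell in the authors' deposited table, a share of 6.25% higher against 7.57% of all genes. It was Deptor, an inhibitor of mTOR (1.27-fold, adjusted p 0.0196 in the authors' deposited table). Eif4ebp1, the translation repressor that mTORC1 phosphorylates, had 2031 against 1274 reads without a call (1.63-fold, adjusted p 0.154 in the authors' deposited table), and Tsc1 was at 0.86-fold (adjusted p 0.176 in the authors' deposited table). Of 6 measured Myc family genes, 1 rose (16.7%, against 7.57% of all genes): Myc, a transcription factor known to act on ribosome genes, from 424 to 1327 reads (3.21-fold, adjusted p 1.3e-12 in the authors' deposited table). Mxi1 (1.17-fold, adjusted p 0.209) and Mxd1 (0.88-fold, adjusted p 0.372), which oppose Myc, were not called in the authors' deposited table.

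**Figure D5:**
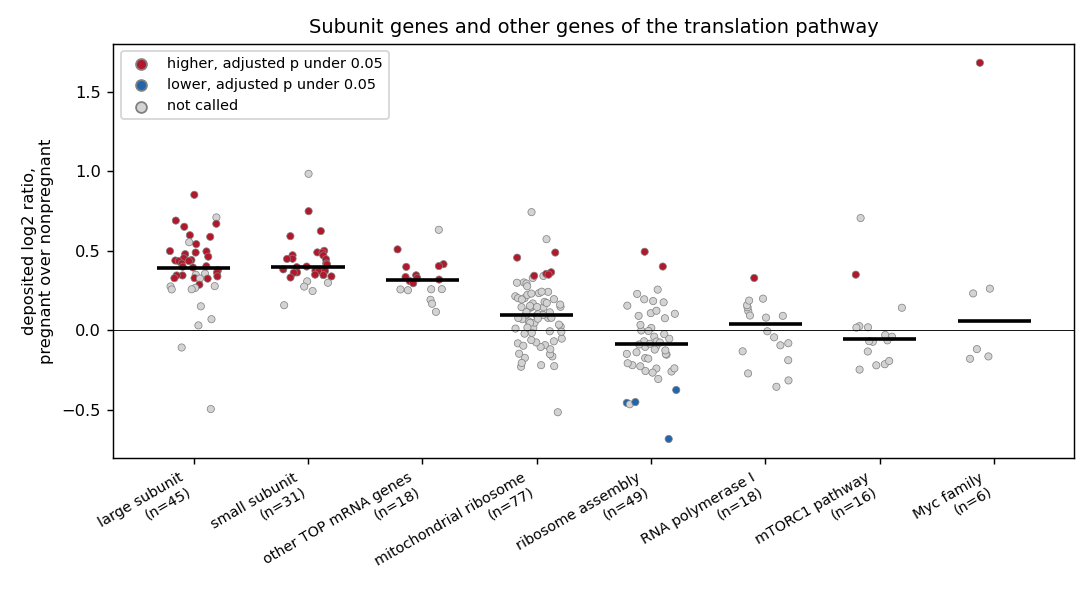
Each point is a gene, placed by the authors' deposited log2 ratio of pregnant over nonpregnant, in 8 groups with their number of genes; red points rose and blue points fell at an adjusted p under 0.05, and black bars are medians. The subunit genes sit at 0.40 in both subunits and the other TOP genes at 0.31, while mitochondrial ribosomal genes (0.10) and assembly genes (-0.09) lie near 0.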

How the data were processed

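The submitters' processing notes name GRCm38 as the genome build and HTSeq 0.5.3p3, TopHat2 2.0.12, Bowtie and TopHat as tools. The authors deposited 1 table of genes, per the file headers, with 1 signal per group (its mean reads), a fold change (ratio), its log2 value, a p-value and an adjusted p-value. The test behind these, the handling of reads with several matches and any scaling before averaging are not given in the sources used here. With no values per library, the authors' adjusted p under 0.05 was the call and no count test was run. What spread these p-values measure is not known, and it may be technical.

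From the table, 19963 lines gave 19940 genes, and all 84 members matched GENCODE M21 by identifier. Union exon length, principal transcript, exon overlap and promoter tracts were computed with Python 3.11.15, pandas 2.3.3 and scipy 1.17.1. The window counts and exon overlap were tested on simulated data, and the tract counts were not. Windows were sought in other genes' transcripts, since no genome sequence was used. Support level first in choosing transcripts was tried before the rule used. A tract within 5 bases and windows of 75 bases were also looked at and not kept. The genes named were those of the stalk, 5S and paralog lists, the 8 largest and 8 smallest ratios at 10 or more mean reads, ratios below 0, the 3 highest and lowest genes per kilobase in each subunit, and the 3 smallest p-values of each other list. Other genes, such as Fam69a and the role genes outside this rule, were named after their values were seen. Some genes are counted but not reported by name here. Members and lists were chosen with earlier results of these data known; length and sharing classes were set after seeing values.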

Additional observations from a re-analysis of the deposited data

How the results depend on the processing

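The table held group means only, so no sample could be left out and edgeR or DESeq2 could not be run. No paired analysis was possible because the groups have 1 mean each. With the threshold at 0.01 on the adjusted p of the authors' deposited table, 37 members and 16 large subunit symbols were called higher, and at 0.1, 1 member was called lower. Shares of all genes called at these 2 thresholds are not given here, so these counts have no background beside them. Median log2 ratios are given for all members, large and small subunit symbols in this order. From the read means they were 0.34, 0.33 and 0.35 with a pseudocount of 1, and 0.34, 0.33 and 0.35 with none. Scaled to total reads they were 0.29, 0.28 and 0.30, with all genes at -0.09. For canonical genes on the deposited ratio they were 0.40, 0.40 and 0.40. The large subunit median was 0.38 without the Rpl24 line, chosen after seeing the data, and the small subunit median 0.40 at 10 or more mean reads. Shares of reads follow in the same order, first pregnant and then nonpregnant. Without insulin and acinar genes in the total they were 1.69%, 0.960% and 0.725%, then 1.28%, 0.735% and 0.545%. Without the gene with most reads in each subunit they were 1.21%, 0.685% and 0.529%, then 0.975%, 0.554% and 0.421%. For canonical genes they were 1.29%, 0.732% and 0.562%, then 1.04%, 0.592% and 0.448%. Per coding length, the large over small subunit ratio of median levels was 0.714. Of the 66 alternatives run, 25 kept the value within its margin. None reversed a direction, but counts and shares of reads have no direction to reverse. All alternatives used the same deposited group values. Where a value moved, the cause was not tested beyond the construction of each alternative. The Spearman correlation of mean reads with shared windows in 75 canonical genes was -0.45 with 100-base windows and -0.32 with transcripts chosen by support level. Library depth and sample spread were not analysed here and limit every value.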
